A study of Mus musculus with 20 samples.

Results

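Expression of 9 genes of T cell signaling, *Lat*, *Lck*, *Zap70*, *Cd2*, *Cd5*, *Cd6*, *Tcf7*, *Sh2d1a* and *Sla2*, was examined in primary tumors with and without knockdown of *Rnaseh2c*, a subunit gene of the RNase H2 enzyme. The genes were chosen by symbol for their known role in T cells, and all 9 were found among the 20188 genes of the tumor table. The tumors grew in immunocompetent FVB mice after Mvt1 cells, of a mouse mammary carcinoma line, had been given by orthotopic injection into the mammary fat pad, and were collected at day 30. Mvt1 cells carried a lentiviral shRNA, either the scramble control or sh4 against *Rnaseh2c*, and both lines had been selected with puromycin. There were 3 scramble and 3 sh4 tumors, each from a different mouse, with 1 tumor of each kind from each of 3 experiments, and RNA was taken from small sections of tumor. The same cell lines grown on plates, 3 scramble and 3 sh4 libraries of total RNA, hold no immune cells by design and served as the level without T cells. One shRNA and one cell line stand for the knockdown here, and because the host mice were not modified, the knockdown was in the injected cells alone. Tumor values are RPKM (reads scaled to transcript length and sequencing depth) and cell values are FPKM (the same quantity counted in fragments).

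Of the 9 genes, *Lck*, *Zap70* and *Lat* act in sequence below the T cell receptor. The receptor has no enzymatic activity of its own: the kinase Lck phosphorylates the CD3 chains, the kinase Zap70 docks on them and phosphorylates the membrane adaptor Lat, and Lat gathers the enzymes that raise calcium and activate downstream kinases. Cd2 is an adhesion and costimulatory receptor, and Cd5 and Cd6 are related surface receptors that tune the strength of the signal. Sh2d1a (SAP) is an adaptor of SLAM family receptors, and Sla2 (SLAP-2) is an adaptor that dampens receptor signaling. Tcf7 encodes TCF-1, a transcription factor of naive and memory-like T cells. In a tumor, RNA of most of these genes is used as a sign of lymphocytes in the tissue. *Sla2* was at 14.9 to 20.0 FPKM in the cultured lines, which hold no lymphocytes. In bulk RNA a change in the number of lymphocytes and a change in RNA per cell cannot be told apart.

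Promoter sequences are shown for 4 of the genes that were higher in every sh4 tumor and for *Sla2*, which was not, so that the members can be compared at the sequence level. RefSeq promoter windows on GRCm38.p6, with 250 bases before and 50 after a transcription start, were given for 6 of the 9 genes (10 windows), and *Cd2*, *Cd6* and *Sh2d1a* are named only. These windows were searched on both strands for 4 short motifs of factors used by lymphocytes: the ETS core GGAAGT (other strand ACTTCC), the RUNX core TGTGGT (other strand ACCACA), the TCF/LEF core CTTTGA (other strand TCAAAG) and the NFAT-type motif GGAAAA (other strand TTTTCC). The ETS and NFAT-type motifs share the letters GGAA, and 1 site cannot match both. The sequences are written 5′ to 3′ along the gene's strand, with motif matches in capitals.
*Lat*, chr7:126369519-126369818, minus strand: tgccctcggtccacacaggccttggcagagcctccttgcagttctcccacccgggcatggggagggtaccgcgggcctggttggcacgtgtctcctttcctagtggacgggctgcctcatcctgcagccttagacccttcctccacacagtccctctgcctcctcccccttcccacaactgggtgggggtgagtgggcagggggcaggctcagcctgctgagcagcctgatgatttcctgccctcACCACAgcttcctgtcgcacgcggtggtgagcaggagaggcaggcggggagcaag
*Lck*, chr4:129573592-129573891, minus strand: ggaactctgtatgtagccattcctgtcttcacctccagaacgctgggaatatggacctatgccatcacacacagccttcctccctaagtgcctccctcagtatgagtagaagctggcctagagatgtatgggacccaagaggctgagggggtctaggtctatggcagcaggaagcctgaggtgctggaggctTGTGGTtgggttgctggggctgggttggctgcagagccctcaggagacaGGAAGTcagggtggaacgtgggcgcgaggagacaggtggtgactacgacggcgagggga
*Zap70*, chr1:36764265-36764564, plus strand: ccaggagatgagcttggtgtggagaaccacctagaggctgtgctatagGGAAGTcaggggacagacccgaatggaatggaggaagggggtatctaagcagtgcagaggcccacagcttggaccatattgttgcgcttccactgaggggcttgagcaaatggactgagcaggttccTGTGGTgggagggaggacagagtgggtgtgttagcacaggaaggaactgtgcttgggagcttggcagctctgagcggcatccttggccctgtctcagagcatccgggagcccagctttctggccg
*Cd5*, chr19:10738925-10739224, minus strand: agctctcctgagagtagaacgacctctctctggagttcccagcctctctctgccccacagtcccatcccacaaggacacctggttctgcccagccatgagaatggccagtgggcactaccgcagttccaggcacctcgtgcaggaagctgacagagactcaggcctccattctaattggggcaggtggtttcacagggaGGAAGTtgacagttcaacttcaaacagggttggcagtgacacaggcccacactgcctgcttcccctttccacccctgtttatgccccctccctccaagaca
*Sla2*, chr2:156887172-156887471, minus strand: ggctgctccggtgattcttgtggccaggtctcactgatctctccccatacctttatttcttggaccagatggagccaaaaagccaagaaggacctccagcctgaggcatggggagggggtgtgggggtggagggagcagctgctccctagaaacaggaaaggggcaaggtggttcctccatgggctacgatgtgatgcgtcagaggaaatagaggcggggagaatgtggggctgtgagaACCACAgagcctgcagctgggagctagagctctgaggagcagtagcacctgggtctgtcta
The ETS core was in a window of 4 of the 6 genes (*Lck*, *Zap70*, *Cd5* and *Tcf7*), against 23.7% of all 32544 promoter windows. The RUNX core was in a window of 4 of the 6 (*Lat*, *Lck*, *Zap70* and *Sla2*), against 16.7% of all windows. The *Sla2* window thus held the same RUNX letters as the *Lat* window, in the same orientation. The TCF/LEF core was found for *Zap70* alone and the NFAT-type motif for *Zap70* and *Tcf7*, in windows not printed, against 16.0% and 23.3% of all windows. Genes with several windows had more chances of a match than a single window, and a match describes letters, not binding.

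The target of the shRNA was checked first. *Rnaseh2c* was 25.9 to 52.0 RPKM in the scramble tumors and 10.2 to 22.4 RPKM in the sh4 tumors, so the highest sh4 tumor was below the lowest scramble tumor. In the cultured lines it was 5.34 to 7.06 FPKM with scramble and 3.19 to 5.36 FPKM with sh4, and these ranges overlapped narrowly. Read numbers per tumor were not given in the sources used here. From the steps between low RPKM values, where 62.4% of 700 low genes fell on whole multiples within 2%, the lowest *Cd5* value, in the scramble tumor of experiment 2, stood for about 65.9 reads, the fewest of any member. Counting error at each member's lowest value was thus about 2.05% (*Sla2*) to 12.3% (*Cd5*). The scramble tumor of experiment 2 stood apart in fat tissue genes, with 5 adipocyte markers summing to 1666 RPKM there against 23.6 to 227 RPKM in the other tumors, and it was also the lowest tumor for 6 of the 9 genes. Without it the median fold change of the 9 genes was 0.70 on the log2 scale. The part of fat tissue in the results was not tested.

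Of the 9 genes, 7 were higher in all 3 sh4 tumors than in all 3 scramble tumors, namely *Lat*, *Lck*, *Zap70*, *Cd2*, *Cd5*, *Cd6* and *Sh2d1a*. Among all 13487 genes tested, 4.19% separated the groups in this direction. The same 7 genes were at an unadjusted limma p under 0.05 and higher in sh4, against 2.16% of all genes, and higher in sh4 in 3 of 3 experiments, against 11.9%. They were also the 7 members at an unadjusted p under 0.05 with the experiment as a block, against 3.06% of all genes. No member passed an adjusted p of 0.05, and neither did any other gene: 0% were called, and the smallest adjusted p of the whole comparison was 0.693. The median log2 fold change (sh4 minus scramble) of the 9 genes was 0.87, on the scale of log2(RPKM + 0.5), against -0.04 over all genes, and 8 of 9 values were positive against 42.6% of all genes. An exact two-sided permutation test gave p = 0.1 for each of the 7 genes, the smallest p that 3 tumors against 3 allow. The genes were selected with earlier results of these tumors known, and *Lat* and *Zap70* are also among the molecules the study drew from genes with a difference of at least 2-fold in the same tumors, so these counts are not independent evidence of a direction.

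**Figure D1:**
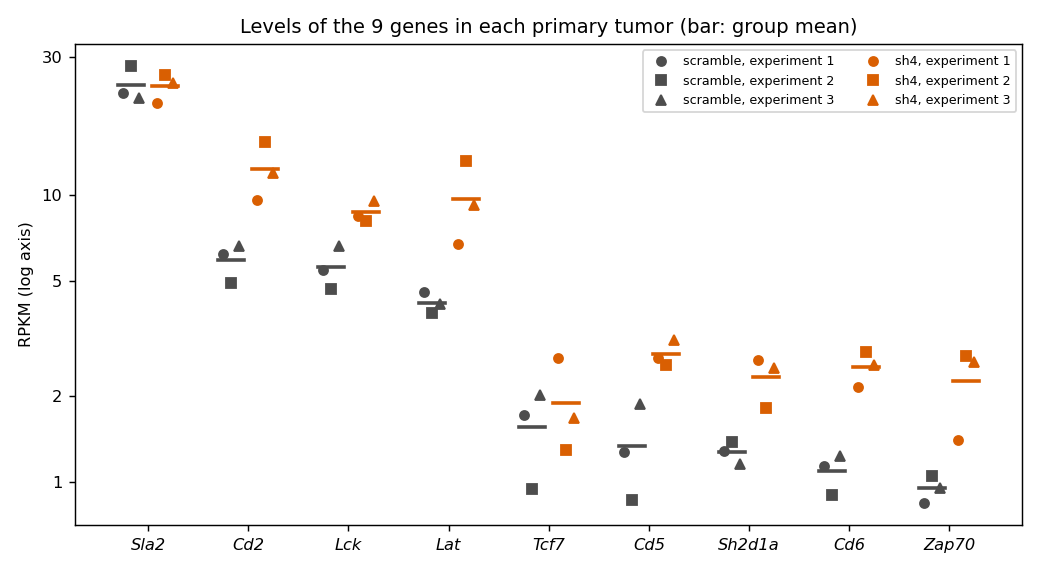
Levels of the 9 genes in RPKM on a log axis, 1 point per tumor, with color for the group, shape for the experiment and a bar at the mean of 3 tumors. The sh4 points lie above the scramble points for *Cd2*, *Lck*, *Lat*, *Cd5*, *Sh2d1a*, *Cd6* and *Zap70*, while those of *Tcf7* and *Sla2* overlap.

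The 2 kinases of the receptor were both higher in sh4 tumors. *Lck*, the Src family kinase that starts the cascade (chr4:129225588-129250885 of mm9, minus strand), was 5.47, 4.71 and 6.61 RPKM in the scramble tumors of experiments 1, 2 and 3 and 8.42, 8.10 and 9.50 RPKM in the sh4 tumors. The lowest sh4 tumor stood above the highest scramble tumor, and the means were 5.60 ± 0.957 and 8.67 ± 0.736 RPKM (SD, n = 3 each). Its log2 fold change was 0.60 (standard error 0.20, limma adjusted p = 0.995), and the differences within experiments, 0.58, 0.72 and 0.49, were the most even of the 7 genes. Leaving out the scramble tumor of experiment 1 or 2 or the sh4 tumor of experiment 3 moved the unadjusted p of *Lck* above 0.05, with fold changes of 0.49 to 0.59 on the log2 scale. *Zap70*, the Syk family kinase that binds the phosphorylated chains (chr1:36818695-36839663, plus strand), was 0.848, 1.05 and 0.959 RPKM in scramble tumors and 1.41, 2.74 and 2.63 RPKM in sh4 tumors. The scramble values were close together, and the sh4 tumor of experiment 1 stood well below the other two sh4 tumors but above every scramble tumor. The mean of *Zap70* went from 0.954 ± 0.103 to 2.26 ± 0.741 RPKM (SD, n = 3 each), a ratio of 2.37 and a log2 fold change of 0.89 (standard error 0.25, limma adjusted p = 0.995), from 0.75 to 1.13 when 1 tumor was left out.

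Of the 3 adaptors, *Lat* and *Sh2d1a* were higher in every sh4 tumor and *Sla2* was not. *Lat*, the membrane scaffold phosphorylated by Zap70 (chr7:133507346-133513057, minus strand), was 4.58, 3.89 and 4.15 RPKM in scramble tumors and 6.73, 13.1 and 9.22 RPKM in sh4 tumors. The 3 sh4 tumors were spread widely above a narrow scramble range. Means were 4.21 ± 0.345 and 9.68 ± 3.20 RPKM (SD, n = 3 each), a ratio of 2.30, and the log2 fold change was 1.07 (standard error 0.26, limma adjusted p = 0.991). It was 0.84 without the sh4 tumor of experiment 2, where *Lat* was 1.63 higher on the log2 scale than in the scramble tumor of that experiment. *Sh2d1a*, the adaptor that couples SLAM receptors to kinases (chrX:39855630-39876874, plus strand), was 1.28, 1.38 and 1.16 RPKM in scramble tumors and 2.66, 1.82 and 2.51 RPKM in sh4 tumors. Here the sh4 tumor of experiment 2 was the lowest of its group, the reverse of *Lat*. The means of 1.27 ± 0.111 and 2.33 ± 0.448 RPKM (SD, n = 3 each) gave a log2 fold change of 0.66 (standard error 0.21, limma adjusted p = 0.995), and without the scramble tumor of experiment 3 its unadjusted p moved above 0.05 at a fold change of 0.61.

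*Sla2*, the dampening adaptor, was 22.5, 28.0 and 21.7 RPKM in scramble tumors and 20.9, 26.1 and 24.5 RPKM in sh4 tumors. The groups overlapped throughout, with the highest value in a scramble tumor and the lowest in an sh4 tumor. Means were 24.1 ± 3.45 and 23.8 ± 2.68 RPKM (SD, n = 3 each), with a log2 fold change of -0.01 (standard error 0.18, limma adjusted p = 0.998, exact two-sided permutation test, p = 1). The sign of this small value turned positive, to at most 0.10, under other scalings and when single tumors were left out. *Sla2* lies at chr2:156698193-156712928 of mm9 on the minus strand, and its end overlaps that of *1110008F13Rik* (now *Rab5if*), a protein-coding gene on the plus strand, from 156698193 to 156699299. The 2 genes share 731 exon bases, 23.6% of those of *Sla2*. Since strand is not stated for the counting of reads, reads of the 2 genes in the shared bases cannot be told apart. *1110008F13Rik* was 40.7, 55.4 and 40.6 RPKM in scramble tumors and 37.4, 41.3 and 42.0 RPKM in sh4 tumors, so its highest value was in the same scramble tumor as that of *Sla2*. In cultured Mvt1 cells, whose values were scaled separately, *Sla2* was at 14.9 to 20.0 FPKM. The part of *1110008F13Rik* and that of the Mvt1 cells in the *Sla2* value of tumors were not tested.

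All 3 surface receptors were higher in sh4 tumors. *Cd2*, which binds Cd48 on neighboring cells (chr3:101079822-101091862, minus strand), was 6.23, 4.94 and 6.64 RPKM in scramble tumors and 9.58, 15.2 and 11.9 RPKM in sh4 tumors. Every sh4 tumor lay clear of the scramble range, and the means were 5.94 ± 0.885 and 12.2 ± 2.84 RPKM (SD, n = 3 each). The log2 fold change of *Cd2* was 0.97 (standard error 0.23, limma adjusted p = 0.991), and the within-experiment differences were 0.58, 1.53 and 0.80. *Cd5* (chr19:10792633-10813464, minus strand), an inhibitory receptor whose level tracks signal strength in T cells, was 1.28, 0.869 and 1.87 RPKM in scramble tumors and 2.70, 2.56 and 3.14 RPKM in sh4 tumors. Its scramble tumors varied more than its sh4 tumors, with means of 1.34 ± 0.504 and 2.80 ± 0.299 RPKM (SD, n = 3 each). The log2 fold change was 0.87 (standard error 0.25, limma adjusted p = 0.995), and 0.68 without the scramble tumor of experiment 2. *Cd6*, which lies beside *Cd5* on the same strand (chr19:10863831-10904548), was 1.14, 0.906 and 1.23 RPKM in scramble tumors and 2.14, 2.84 and 2.55 RPKM in sh4 tumors. Both groups were tight, at 1.09 ± 0.168 and 2.51 ± 0.351 RPKM (SD, n = 3 each), and the log2 fold change of 0.92 had a standard error of 0.20. The limma adjusted p of *Cd6* was 0.937.

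The partners of these receptors were measured as well. *Cd48*, the mouse ligand of Cd2, was 14.5, 9.24 and 15.8 RPKM in scramble tumors and 26.6, 7.62 and 9.42 RPKM in sh4 tumors, with 1 high sh4 tumor and a log2 fold change of -0.04. *Alcam* and *Cdcp1* encode ligands of Cd6. *Alcam* was 1.77 ± 0.733 and 1.94 ± 0.283 RPKM (SD, n = 3 each; log2 fold change 0.14), and *Cdcp1* stayed at or below 0.095 RPKM in every tumor. *Cd72*, reported as a ligand of Cd5, was 8.92 ± 2.26 and 11.8 ± 3.10 RPKM (SD, n = 3 each; log2 fold change 0.38). None of these ligands separated the groups in tumors. In cultured cells *Alcam* was lower with sh4, at 2.84 ± 0.230 and 1.38 ± 0.0902 FPKM (SD, n = 3 each), a log2 fold change of -0.83 (standard error 0.08, limma adjusted p = 0.0181).

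*Tcf7* was the other gene without a separation of the groups. It was 1.72, 0.950 and 2.01 RPKM in scramble tumors and 2.70, 1.29 and 1.68 RPKM in sh4 tumors. The sh4 tumor was higher in experiments 1 and 2 (differences of 0.53 and 0.31 on the log2 scale) and lower in experiment 3 (-0.20). The means of 1.56 ± 0.547 and 1.89 ± 0.728 RPKM (SD, n = 3 each) gave a log2 fold change of 0.21 (standard error 0.30, limma adjusted p = 0.997, exact two-sided permutation test, p = 0.6), and -0.02 without the scramble tumor of experiment 2 or the sh4 tumor of experiment 1. In both groups the tumor of experiment 2 was the lowest for *Tcf7*, and these 2 tumors also had the highest values of a transcript length index (0.25 and 0.37 on the log2 scale, against -0.32 to 0.05), which is the median of centered log2 values of 824 genes under 1000 exon bases minus that of 5602 genes over 4000. With this index as a covariate, added after the data were seen, the *Tcf7* fold change was 0.35 at an unadjusted p of 0.0351 in limma (adjusted p = 0.543), and those of the 7 genes above were 0.63 (*Lck*) to 1.00 (*Lat*). *Tcf7* lies at chr11:52065873-52096681 on the minus strand, and 2 noncoding genes overlap its introns without sharing exon bases.

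**Figure D2:**
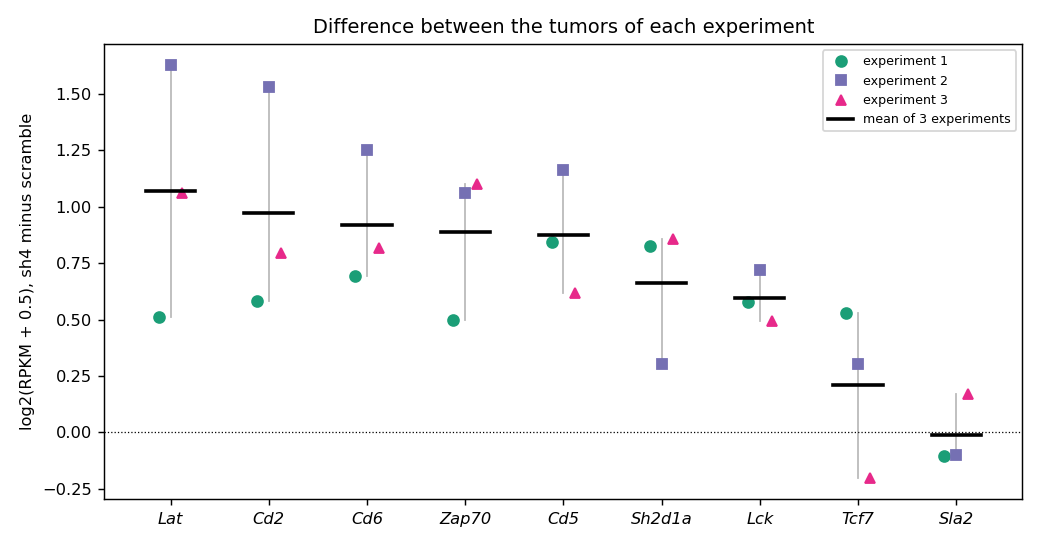
Difference between the sh4 and the scramble tumor of each experiment on the log2(RPKM + 0.5) scale, 1 point per experiment and a black bar at the mean of 3, for the 9 genes in order of mean. All 3 points lie above 0 for 7 genes, from 0.30 (*Sh2d1a*, experiment 2) to 1.63 (*Lat*, experiment 2), while *Tcf7* and *Sla2* have points on both sides of 0.

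Which tumor was highest differed among the 9 genes. The sh4 tumor of experiment 2 was the highest for *Lat*, *Zap70*, *Cd2* and *Cd6*, the sh4 tumor of experiment 3 for *Lck* and *Cd5*, and the sh4 tumor of experiment 1 for *Tcf7* and *Sh2d1a*. Per length, the order of mean levels in scramble tumors was *Sla2*, *Cd2*, *Lck*, *Lat*, *Tcf7*, *Cd5*, *Sh2d1a*, *Cd6* and *Zap70*. *Sla2* stood apart from *Cd2*, *Lck* from *Lat* and *Lat* from *Tcf7*, while all other neighbors in this order overlapped in their ranges. In sh4 tumors *Cd2* stood apart from *Lck*, and *Lck* and *Lat* overlapped.

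To see whether the members kept pace with the receptor complex itself, each was set against the mean log2 level of *Cd3d*, *Cd3e* and *Cd3g*, the CD3 subunits. That CD3 level was 1.82, 1.50 and 2.02 in scramble tumors and 2.76, 3.18 and 2.83 in sh4 tumors (mean of log2 RPKM), and the groups did not overlap. Relative to it, *Lat*, *Zap70*, *Cd5*, *Cd6* and *Cd2* differed between sh4 and scramble tumors by 0.01, 0.04, -0.02, 0.06 and -0.12 on the log2 scale, each with overlapping ranges. Because the CD3 level was higher in every sh4 tumor, a gene that did not change falls relative to it. *Sla2*, with a log2 fold change of -0.01, was lower by -1.16 relative to CD3 in this way. *Lck* relative to CD3 was lower in every sh4 tumor, by a mean of -0.50, although its own log2 fold change was 0.60. The share of all genes that fall relative to CD3 was not counted. *Sh2d1a* and *Tcf7* relative to CD3 differed by -0.29 and -0.87 with overlapping ranges. These ratios share the CD3 genes and were not tested. The CD3 genes are themselves uneven, with log2 fold changes of 1.31 for *Cd3g* and 1.22 for *Cd3d* but 0.57 for *Cd3e* and 0.24 for *Cd247*, the CD3 zeta chain.

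In cultured Mvt1 cells most of the 9 genes were at or near 0. *Cd2* and *Sh2d1a* were listed at 0 FPKM in all 6 libraries, *Zap70* was at most 0.00487, *Cd6* at most 0.0217 and *Lat* at most 0.0427 FPKM, and *Lck* was 0.0407 to 0.133 FPKM. These 6 genes had a mean under 0.1 FPKM and were not tested in cells. *Cd5* was 0.113 to 0.227 FPKM (log2 fold change 0.05, limma adjusted p = 0.813) and *Tcf7* 0.251 to 0.451 FPKM (log2 fold change -0.03, limma adjusted p = 0.913), low levels that did not separate the lines. *Sla2* was of another order, at 14.9, 16.2 and 18.4 FPKM in scramble cells and 20.0, 18.7 and 18.6 FPKM in sh4 cells. All 3 sh4 values of *Sla2* were above all scramble values, as for 13.6% of the 21106 genes tested in cells, with a log2 fold change of 0.21 (standard error 0.08, limma adjusted p = 0.250). Of the 3 members tested in cells 0 were called, against 1.28% of all genes. The gene it overlaps, *1110008F13Rik*, was 1.60 to 1.90 FPKM in scramble and 2.12 to 5.22 FPKM in sh4 cells, lower than *Sla2*, whereas in every tumor it was the higher of the pair. The tables were scaled separately, so levels across them are set side by side only. Of 12 T cell markers, 9 had a mean under 0.1 FPKM in cells, and *Cd3d*, *Cd3e*, *Cd3g* and *Thy1* were listed at 0 in all 6 libraries. *Cd247*, at 1.17 to 1.63 FPKM in cells, had the highest level of these markers.

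**Figure D3:**
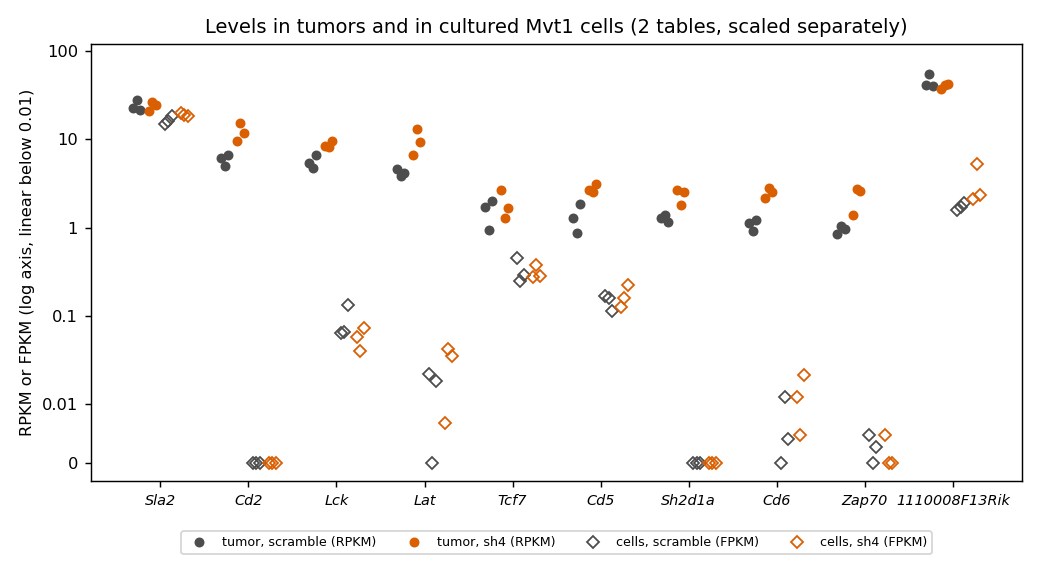
Levels of the 9 genes and of *1110008F13Rik* in tumors (filled circles, RPKM) and in cultured Mvt1 cells (open diamonds, FPKM), 1 point per library, on an axis that is logarithmic above 0.01 and linear below. *Sla2* is at 14.9 to 20.0 FPKM in cells without T cells, while *Cd2* and *Sh2d1a* are at 0 in all 6 cell libraries.

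Other lists of receptor pathway genes differed in their medians, and the 4 CD3 chains measured had a median log2 fold change of 0.89. Because the 9 genes were chosen with earlier results of these tumors known, their median beside those of other lists is a description only. Of 23 TCR signaling partners, 16 were positive and 7 negative in log2 fold change (median 0.10), and 2 were at an unadjusted limma p under 0.05, both higher in sh4. These were *Sh2d2a*, the adaptor TSAd that binds Lck (0.821 ± 0.086 and 1.51 ± 0.161 RPKM, SD, n = 3 each), and *Prkcq*, the kinase PKC theta (1.24 ± 0.146 and 2.18 ± 0.362 RPKM, SD, n = 3 each). Of 16 negative regulators, 7 were positive and 9 negative with a median of -0.04, and 2 were at an unadjusted limma p under 0.05: *Sit1* at a log2 fold change of 0.93 and *Lax1* at 0.78, both transmembrane adaptors of lymphocytes. Of the 7 SLAM family receptors, 5 were positive with a median of 0.38. *Slamf6* (0.70) and *Slamf7* (0.58) were at an unadjusted limma p under 0.05. Of the 12 T cell transcription factors, among which *Tcf7* is not counted, 9 were positive with a median of 0.10 and 0 were at an unadjusted limma p under 0.05. Of 9 naive and memory T cell genes, 7 were positive and 2 negative (median 0.12). *Il7r* (0.87) and *Ccr7* (0.65) were at an unadjusted limma p under 0.05 and higher in every sh4 tumor, while *Klf2*, a factor of quiescent T cells, was lower in every sh4 tumor at 10.1 ± 1.86 and 7.44 ± 0.254 RPKM (SD, n = 3 each; log2 fold change -0.41). None of these genes passed the adjusted threshold. Over all genes tested, 2.16% were at an unadjusted limma p under 0.05 and higher in sh4, and 4.19% were higher in every sh4 tumor. The share of all genes lower in every sh4 tumor was not counted.

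Close relatives of the members were also compared. Some are used outside T cells, but *Fyn*, *Lef1*, *Sla* and *Cd48* also stand in the lists above and are counted in both. Of 17 paralogs tested, 5 were positive and 12 negative, with a median log2 fold change of -0.11 and 0 at an unadjusted limma p under 0.05. With the experiment as a block, 2 paralogs were at an unadjusted limma p under 0.05, *Cd163* and *Cd5l*, both lower in sh4 in 3 of 3 experiments. The share of all genes lower by these measures was not counted. *Lat2*, the relative of *Lat* in B and myeloid cells, was 38.4 ± 16.3 and 35.1 ± 7.26 RPKM (SD, n = 3 each; log2 fold change -0.07). *Syk*, the relative of *Zap70*, was 11.9 ± 0.814 and 9.55 ± 2.80 RPKM (log2 fold change -0.34). Among Src family kinases related to *Lck*, the fold changes on the log2 scale were -0.11 for *Fyn*, -0.04 for *Yes1*, -0.39 for *Src*, -0.23 for *Lyn* and -0.30 for *Fgr*, and *Blk* was too low to be tested. *Sla*, the relative of *Sla2*, was 6.26, 6.37 and 6.96 RPKM in scramble tumors and 9.12, 8.69 and 8.06 RPKM in sh4 tumors. It was the one tested paralog whose groups did not overlap (log2 fold change 0.38), and in cells it was at most 0.012 FPKM, whereas *Sla2* was at 14.9 to 20.0 FPKM there. The scavenger receptor relatives of *Cd5* and *Cd6*, *Cd163* and *Cd5l*, which are macrophage genes, had log2 fold changes of -0.84 and -1.39 with overlapping groups. *Sh2d1b1* and *Sh2d1b2*, relatives of *Sh2d1a* in NK cells, were at 0.30 and -0.13, and *Lef1*, *Tcf7l1* and *Tcf7l2*, relatives of *Tcf7*, at 0.03, -0.15 and 0.14.

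**Figure D4:**
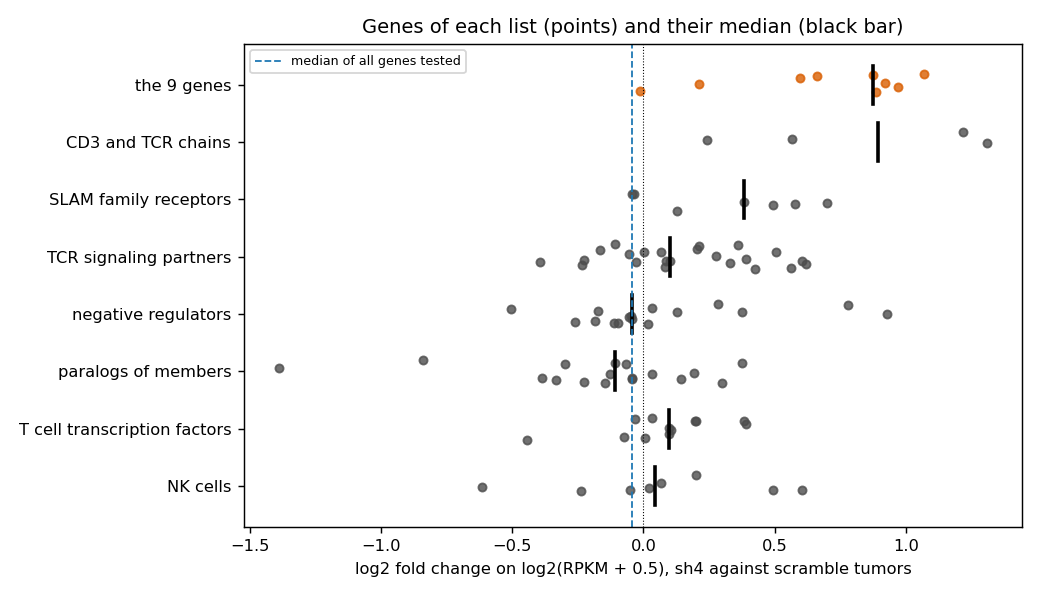
Log2 fold change of sh4 against scramble tumors for each gene (points) of the 9 members and of 7 related lists, with the list median as a black bar and the median of all tested genes as a dashed line. The members' median is 0.87 and that of the CD3 genes 0.89, while those of the signaling partners (0.10), negative regulators (-0.04) and paralogs (-0.11) lie closer to the line at -0.04. The members and lists were chosen with earlier results of these tumors known.

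Markers of cells that also use some of these genes were measured beside them. Of 9 T cell markers tested, 7 were positive in log2 fold change (median 0.57). At an unadjusted limma p under 0.05 were 4, all higher in sh4, against 2.16% of all genes. *Cd8a* (0.573, 0.486 and 1.41 RPKM in scramble, 1.98, 2.68 and 3.83 RPKM in sh4) and *Cd8b1* had the highest of their log2 fold changes, 1.36 and 1.46, with *Cd4* at 0.57 and overlapping groups. The 2 negative markers were *Thy1* and *Cd28*, both at -0.17 with overlapping groups. *Thy1* had the highest level of these markers (53.6 ± 9.66 and 47.3 ± 5.20 RPKM, SD, n = 3 each) and was lower in sh4 in 3 of 3 experiments. NK cells, which express *Cd2*, *Lck*, *Zap70*, *Lat* and *Sh2d1a* too, had 8 markers tested, of which 5 were positive with a median of 0.04 and 0 were at an unadjusted limma p under 0.05. With the experiment as a block, *Prf1* (perforin) was lower and *Klrk1* (the receptor NKG2D) higher, both at an unadjusted limma p under 0.05. *Prf1* was also lower in every sh4 tumor, at 2.65 ± 0.744 and 1.56 ± 0.461 RPKM (SD, n = 3 each). Over all genes tested, 3.06% were at an unadjusted limma p under 0.05 with the block and higher in sh4. The shares of all genes lower with the block, in every sh4 tumor or in 3 of 3 experiments were not counted. The summed level of the NK markers was 21.1 to 25.1 RPKM in scramble and 21.1 to 29.2 RPKM in sh4 tumors. B cells, some of which carry *Cd5*, had low markers that summed to 2.07 to 2.97 RPKM in scramble and 3.26 to 4.70 RPKM in sh4 tumors, and 2 of 7 could be tested. Lymph node stroma markers, of a kind that a mammary fat pad can hold, summed to 6.02, 2.70 and 8.82 RPKM in scramble and 39.1, 30.0 and 8.01 RPKM in sh4 tumors, with *Ccl19* at a log2 fold change of 1.24 and *Cxcl13* at 1.89. Their sum followed *Cxcl13*, at 37.6, 27.7 and 6.27 RPKM in the sh4 tumors of experiments 1, 2 and 3. The sum was thus high in the sh4 tumors of experiments 1 and 2 and within the scramble range in that of experiment 3. *Ccl19*, and *Madcam1* at levels too low to be tested, were above every scramble tumor in all 3 sh4 tumors. *Madcam1* and *Glycam1* were highest of all tumors in the sh4 tumor of experiment 3, at 0.271 and 0.313 RPKM. In the sh4 tumor of experiment 3 all 7 members named above were above every scramble tumor. The part of each cell type in the members' values was not tested.

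The genes whose pattern over the 6 tumors was most like the mean of the 9 members were sought among 10714 other genes averaging at least 1 RPKM, by the mean absolute difference of centered log2 values. The 8 closest were *Tspan33*, *Sh2d2a*, *Prodh*, *Tnfsf13b*, *C630043F03Rik*, *Fbln7*, *Itgax* and *Elk4*, at differences of 0.0749 to 0.0940. Among the members, *Lck* was the most like the mean of the other members (0.0873), followed by *Cd6* (0.131), and *Sla2* (0.392) and *Tcf7* (0.434) were the least like it.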

How the data were processed

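Tumor values are RPKM computed by the authors. The mRNA libraries were sequenced on a HiSeq2500, and reads were trimmed (Trimmomatic), aligned to mm9 and Ensembl transcripts (Tophat) and analysed in Partek Genomics Suite. Cell values are FPKM deposited by the authors for total RNA of cultured lines. The methods name Tophat and DESeq2 for these, and the submitters' processing notes list STAR 2.7 and TopHat2 2.1.0 among the tools. Strand and the counting program are not given in the sources used here, and 8 exome libraries were not used here.

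Coordinates and exon lengths came from GENCODE vM1 on NCBIM37 (mm9). Exon lengths were found for 19504 of 20188 tumor genes. Within each table, log2(value + 0.5) of all genes with a mean of at least 0.1 was fitted with limma 3.58.1 (R 4.3.3, variance trend) without a block, and p-values were adjusted by Benjamini-Hochberg over all genes tested (13487 in tumors, 21106 in cells). A fold change on this scale understates that of low genes. Single values were also compared with the exact permutation test of scipy 1.17.1. Groups came from the sample titles. Tumor numbers mark the experiment, so they pair 1 tumor of each group; after removal of group means the correlations within numbers were 0.138, 0.330 and -0.117. No source says whether the cell plates were separate cultures, so p-values there measure the spread between plates.

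Values were named by rule: all 9 genes, all their paralogs and ligands, the 3 genes with the smallest p of other lists, and the 8 genes of most similar pattern. Other genes were named after their values were seen, and some listed genes are not reported here. The members and lists were chosen with earlier results of these data known. The alternatives tried were pseudocounts of 0.1 and 1, filters of 0 and 1 on the mean, quantile and median-ratio scaling, a replicate block, no variance trend, omission of each library in turn and, added with the values known, a length index as covariate. Scripts were tested on simulated data. Read depth is an estimate from the steps between low RPKM values. Promoter windows are from RefSeq.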

Additional observations from a re-analysis of the deposited data

How the results depend on the processing

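Under 15 alternatives for the tumors, the median log2 fold change of the 9 genes lay between 0.70 and 1.02 (0.70 to 0.89 when 1 tumor was left out, lowest without the scramble tumor of experiment 2). The number at an unadjusted limma p under 0.05 was 6 to 8 (6 to 7 when 1 tumor was left out, and 8 with the length index, which added *Tcf7*). The number past an adjusted p was 0 in each, and the number with groups apart was 6 with quantile normalization and 7 with the other scaling and pseudocounts. Leaving out a tumor cannot undo a separation. A pseudocount cannot change the order of a gene's values. The counts of groups apart under those alternatives thus say nothing of stability. With the experiment as a replicate block, the pairing the labels give, 7 members were at an unadjusted limma p under 0.05 and 0 at an adjusted one. The median stayed at 0.87, which a block cannot change with 1 tumor of each group per experiment, and no call of a member changed. In cells 0 members were called under all 14 alternatives. The plate numbers there are not shown to pair the lines (correlations of -0.061, -0.075 and -0.073), and the block on them also gave 0 calls.

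Of the single-gene values under alternatives, 165 kept their sign and 10 turned, the latter all of genes near 0. No member was called under any setting. The replicate block, the filters and the fit without a variance trend leave a fold change unchanged, so those values could not turn. *Sla2* in tumors was 0.040 with quantile normalization, 0.043 with median-ratio scaling and -0.080 to 0.101 when 1 tumor was left out, positive without the scramble tumor of experiment 2 or the sh4 tumor of experiment 1. *Tcf7* in tumors was -0.024 to 0.396 when 1 tumor was left out, negative without the scramble tumor of experiment 2 or the sh4 tumor of experiment 1. In cells, *Tcf7* was 0.0096 with quantile normalization, and -0.100 to 0.070 when 1 plate was left out, positive without scramble plate 1 or sh4 plate 1, and *Cd5* was -0.011 to 0.096 when 1 plate was left out, negative without sh4 plate 3. The cause was not tested. With 3 tumors a group, an exact test cannot go below 0.1, and the levels of *Zap70*, *Cd5* and *Cd6* in scramble tumors rest on about 65.9 to 113 reads at their lowest.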

Other observations

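Among cell types that do not carry the receptor, 7 macrophage markers had 1 positive and 6 negative log2 fold changes with a median of -0.33, and 0 were at an unadjusted limma p under 0.05 (1, *Cd163*, with the experiment as a block). *Csf1r*, the receptor that macrophages depend on, averaged 40.3 ± 0.809 RPKM against 33.7 ± 6.59 RPKM with sh4 (SD, n = 3 each). Of 6 mast cell and platelet markers, 4 were positive, and *Pf4*, a platelet chemokine, was lower in every sh4 tumor (60.0 ± 22.2 against 37.4 ± 0.405 RPKM, SD, n = 3 each) at an unadjusted limma p of 0.0459 and an adjusted p of 0.995. All 5 adipocyte markers were negative with a median of -1.31, with overlapping groups and 0 at an unadjusted limma p under 0.05. Mammary epithelium markers were positive in 4 of 6, with overlapping groups. *Krt14* was at a log2 fold change of 0.54, *Krt5* at 0.49 and *Krt8* at -0.39. Of 8 housekeeping genes 6 were negative with a median of -0.12, and *Gapdh* was lower in every sh4 tumor (log2 fold change -0.52, limma adjusted p = 0.995). As for *Pf4*, this stands without the share of all genes lower in every sh4 tumor, which was not counted. The share lower with the experiment as a block was not counted either.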
